A study of Mus musculus with 2 samples.

Results

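Mir877, Mir1224, Mir702, Mir1981 and Mir3102 are mouse microRNA genes whose hairpins are annotated at the ends of short introns, the place of mirtrons. How these 5 genes are processed was not tested here. They were picked by gene symbol in GENCODE M21, not by a rule on their counts, though earlier results of these data were known. All 5 were found among the 2202 microRNA genes of the deposited tables. The tissue was left cerebral cortex, taken at an age of 36 days from males of B6CASTF1/J, and RNA of under 30 bases was sequenced, as the labels give the size. These mice are first-generation hybrids of a C57BL/6J and a CAST parent, with no further allele or treatment named. The 2 libraries form 1 group and come from animals that the labels number 3 (replicate 1) and 4 (replicate 2), although a single donor identifier stands on both. The design therefore compares no conditions, and it asks how much of each mirtron cortex tissue held and how far the libraries differ.

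Most microRNA hairpins are cut out of a long nuclear transcript by the enzyme Drosha with its partner DGCR8, and Dicer then cuts the hairpin into a short duplex. A mirtron takes another first step. The spliceosome removes a short intron, the branched intron is opened into a linear RNA, and this RNA folds into a hairpin that Dicer can cut, without Drosha. The splice sites thus set the outer ends of both arms: the 5p arm begins at the GU of the splice donor, and the 3p arm, which holds the pyrimidine-rich stretch before the splice acceptor, ends at or near its AG. In tailed mirtrons only 1 end of the hairpin is a splice site, and the extra intron sequence on the other side is trimmed.

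The hairpins below show how closely the annotated RNAs match whole introns. Capitals mark the first bases of the host intron and, where the hairpin reaches that far, the last bases of the intron. Sequences come from RefSeq on GRCm38.p6, the assembly also called mm10, whose table matched 4 of the 5 genes for hairpins (all but Mir3102) and 5 of 5 for mature arms.

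Mir877: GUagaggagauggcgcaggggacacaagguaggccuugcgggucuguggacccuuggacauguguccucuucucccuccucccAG
Mir1224: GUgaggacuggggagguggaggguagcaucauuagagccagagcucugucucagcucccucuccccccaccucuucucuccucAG
Mir1981: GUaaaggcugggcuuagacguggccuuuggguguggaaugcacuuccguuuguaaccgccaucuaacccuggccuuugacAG
Mir702: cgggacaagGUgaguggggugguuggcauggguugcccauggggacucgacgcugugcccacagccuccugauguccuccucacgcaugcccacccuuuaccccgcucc

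Against the annotation, 4 of the 5 hairpins began on the first base of an intron and ended on its last, with a distance of 0 bases at both ends. Mir877 (ENSMUSG00000077931.1, chr17:35960730-35960814, minus strand, 85 bases) is intron 12 of 22 of Abcf1-201, a transcript of a ribosome-associated ATP-binding protein. Mir1224 (ENSMUSG00000080669.1, chr16:20604452-20604536, plus strand, 85 bases) is the last intron, 22 of 22, of Vwa5b2-202. Mir1981 (ENSMUSG00000088559.1, chr1:184822407-184822488, minus strand, 82 bases) is intron 5 of 7 of Marc2-201, which encodes a mitochondrial amidoxime reductase. Mir3102 (ENSMUSG00000093296.1, chr7:100882306-100882409, minus strand, 104 bases) is intron 8 of 20 of Arhgef17-201. All 5 host introns have coding exons on both sides in the transcripts named.

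Mir702 (ENSMUSG00000076240.1, chr5:136991433-136991541, plus strand, 109 bases) departed from this pattern. Its hairpin starts 9 bases inside an exon of Plod3, a lysyl hydroxylase and glycosyltransferase of collagen, and stops 2 bases before the end of intron 13 of 18 of Plod3-201 (136991442 to 136991543, 102 bases). Its arms nevertheless lie within the intron: miR-702-5p starts on the first intron base. The rule used for all genes, both ends within 5 bases of the intron's ends, therefore leaves Mir702 out, and a margin of 10 bases takes it in.

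The host models differed in how often they hold these introns. The intron of Mir877 is in the 1 Abcf1 transcript that runs across it, that of Mir1224 in 4 of 4 for Vwa5b2, that of Mir702 in 5 of 5 for Plod3 and that of Mir1981 in 6 of 7 for Marc2. That of Mir3102 is in 2 of 3 for Arhgef17, and the other model, Arhgef17-203, is annotated as a retained intron. None of the 5 genes is part of a tight microRNA cluster. The nearest other microRNA gene lay 42.8 kb from Mir877 (Mir1894), and for the other members it lay between 302 kb (Mir702) and 651 kb (Mir1224) away. For Mir3102 it was Mir139, the microRNA gene with the highest mean level, at 593 kb.

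The mature arms are shown because their ends can be set against the splice sites and their seeds against each other. Capitals are the seed, bases 2 to 8, by which a microRNA pairs with its targets.

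miR-877-5p: gUAGAGGAgauggcgcaggg
miR-877-3p: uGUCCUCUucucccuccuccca
miR-1224-5p: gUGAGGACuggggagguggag
miR-1224-3p: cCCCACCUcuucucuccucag
miR-702-5p: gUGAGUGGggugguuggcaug
miR-702-3p: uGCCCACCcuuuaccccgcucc
miR-1981-5p: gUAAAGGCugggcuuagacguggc
miR-1981-3p: cAUCUAACccuggccuuugac
miR-3102-5p: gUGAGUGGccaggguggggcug
miR-3102-5p.2-5p: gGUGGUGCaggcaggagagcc
miR-3102-3p.2-3p: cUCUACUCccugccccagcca
miR-3102-3p: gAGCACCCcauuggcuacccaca

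In all 5 genes the outer 5p arm started on the first intron base, and the outer 3p arm ended 0 to 2 bases before the last: 0 for miR-1224-3p, 1 for miR-877-3p and miR-3102-3p, and 2 for miR-702-3p and miR-1981-3p. Mir3102 holds 4 arms in its single intron. The inner 5p arm begins 22 bases after the intron start, directly behind the outer one, and the inner 3p arm ends 24 bases before the intron end, directly before the outer one.

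**Figure D1:**
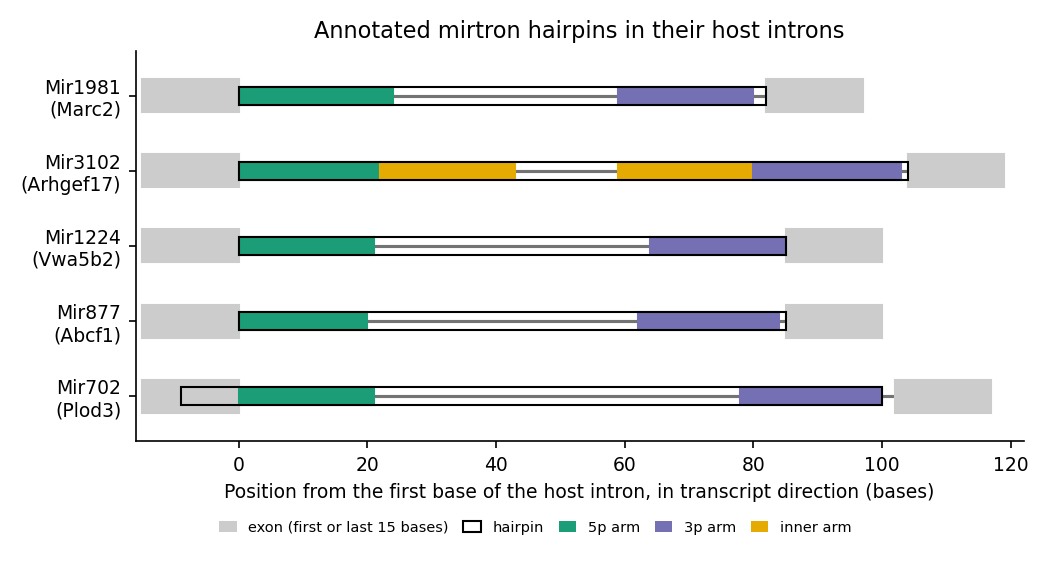
Hairpins (outlines) and mature arms (filled) of the 5 mirtrons, with position in bases from the first base of the host intron in transcript direction (horizontal axis) and 1 row per gene with its host. The outlines of Mir877, Mir1224, Mir1981 and Mir3102 run from exon to exon (grey), while that of Mir702 begins 9 bases inside the upstream exon and ends 2 bases short of the downstream one.

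The 12 arms hold 11 seeds. The shared one, UGAGUGG, belongs to miR-702-5p and miR-3102-5p, which come from introns on chromosomes 5 and 7. No arm of a gene outside the 5 has any of the 11 seeds among the 1738 mature sequences of the RefSeq table, so no other member of a seed family could be set beside them. Nor does any of the 12 arms lie, on either strand, in the hairpin of another gene of the tables, among 968 hairpins in all. Other places in the genome were not searched here.

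The base composition and predicted folds of the mirtrons were set beside those of all genes. GU opens 5 of 5 outer 5p arms of the mirtrons, against 5.44% (38 of 698) of the 5p arms of all genes in the tables. The 5 of 5 follows from their start on the splice donor and is no separate result. Pyrimidines made up 90.9% of miR-877-3p, 85.7% of miR-1224-3p, 81.8% of miR-702-3p, 66.7% of miR-1981-3p and 56.5% of miR-3102-3p. The median over 702 3p arms was 59.1%, so 4 of the 5 lie above it and miR-3102-3p lies below. The inner arm miR-3102-3p.2-3p had 76.2%. Outer 3p arms hold the stretch before the splice acceptor, so this share too goes with their place and is no separate result. In the outer 5p arms the share ran from 19.0% (miR-1224-5p) to 37.5% (miR-1981-5p), and all 5 lie below the median of 45.5%. Of the 4 hairpins with a sequence, Mir702 has a GC content of 65.1%, Mir877 of 61.2%, Mir1224 of 60.0% and Mir1981 of 53.7%, above the median of 51.7% over the 968 hairpins. The minimum free energy predicted by RNAfold was -0.50 kcal/mol per base for Mir1224, -0.43 for both Mir877 and Mir702, and -0.37 for Mir1981, beside a median of -0.41, so Mir1224 has the most stable predicted fold of the 4 for its length. These features follow from sequence alone and say nothing of expression.

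Replicates 1 and 2 held 11886775 and 11534730 reads, of which 4273791 and 4010274 were assigned to microRNA genes on their own strand. Levels are in CPM, the own-strand counts of a gene per 1000000 such counts over all microRNA genes. Detection required at least 10 CPM in each library. Of the listed neuronal markers 4 of 7 were detected, with sums of 79090 and 48396 CPM in replicates 1 and 2 and Mir124a-2 at 0. The 4 detected ones did not move together between the libraries. The log2 ratio of replicate 2 over replicate 1 was -0.83 for Mir132, -1.05 for Mir128-1 and -0.22 for Mir137, but 0.52 for Mir138-1. The sums were 5092 and 3534 CPM for 2 oligodendrocyte markers, 11394 and 10799 CPM for endothelial Mir126a, 56.9 and 771 CPM for 2 red-cell markers, 38.8 and 10.2 CPM for 6 markers of striated muscle (Mir1a-1 and Mir133a-2 at 0) and 47.5 and 79.8 CPM for Mir122 of liver. These sums differ between the libraries beside the mirtron values below, and their part in those values was not tested. Fewer cells of a type and less RNA per cell cannot be told apart in tissue samples. Reads that mapped to several places, 42.8% of replicate 1 and 39.9% of replicate 2, are in none of these counts. A count of 0 therefore does not show that a marker was absent.

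All 5 mirtrons were detected in the cortex, at mean levels between 322 and 695 CPM. Whether these reads are mature arms or pieces of introns cannot be told apart from gene counts. Mir1981 was the most abundant on average, followed by Mir3102, Mir1224, Mir877 and Mir702. The means differed by 2.16-fold from highest to lowest and took the ranks 117, 125, 138, 146 and 151 among 2202 genes. Over all genes 13.6% (300 of 2202) were detected, and the median of the detected genes was 325 CPM, so 4 of the mirtrons lay above the middle of the detected genes and Mir702 just under it. Reads that mapped to several places are left out of all these levels, and their effect on the ranks was not tested. The summed level of the 5 mirtrons was 2366 CPM in replicate 1 and 2341 CPM in replicate 2, or 0.235% ± 0.00181 of own-strand counts (SD, n = 2). In these sums the higher level of Mir1981 in replicate 2 offset lower levels of the others there.

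Mir1981 had 2201 counts in replicate 1 and 3508 in replicate 2, or 515 CPM (exact 95% binomial interval 494 to 537) and 875 CPM (846 to 904), with a mean of 695 ± 254 CPM (SD, n = 2). It was the second of the mirtrons in replicate 1 and the first in replicate 2. Mir3102 had 2735 and 2223 counts, or 639.9 CPM (616 to 664) and 554 CPM (532 to 578), with a mean of 597 ± 60.5 CPM. Reads of its outer and inner arms are counted together, so the share of each cannot be given. Mir1224 had 1717 and 1493 counts, or 402 CPM (383 to 421) and 372 CPM (354 to 392), with a mean of 387 ± 20.8 CPM. Mir877 had 1574 and 1347 counts, or 368 CPM (350.3 to 387) and 336 CPM (318 to 354), with a mean of 352 ± 22.9 CPM. Both were close in the libraries, and Mir877 lay just under Mir1224 in each. Mir702 had 1886 and 816 counts, or 441 CPM (422 to 462) and 203 CPM (189.8 to 218), with a mean of 322 ± 168 CPM (SD, n = 2). It stood below Mir3102 and Mir1981 in replicate 1 and below all 4 others in replicate 2. The intervals cover counting error only.

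**Figure D2:**
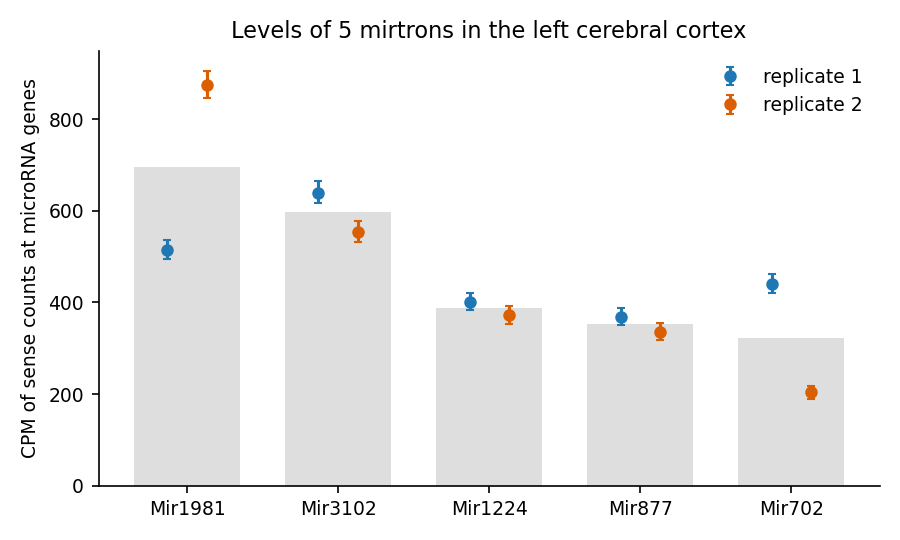
CPM of the 5 mirtrons on a linear vertical axis that starts at 0. Bars are means of both libraries, and points are single libraries with exact 95% counting intervals. Mir1981 was higher in replicate 2 (875 against 515 CPM) and Mir702 in replicate 1 (441 against 203 CPM), while the points of Mir1224 and Mir877 lie near their means.

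In the order of mean levels, neighbours did not all separate. The ranges of the libraries overlapped for Mir1981 and Mir3102 and for Mir877 and Mir702. They did not overlap between Mir3102 and Mir1224, or between Mir1224 and Mir877, where the means differed by 1.10-fold only. The counting intervals of Mir1224 and Mir877 overlapped in each library, so the gap between their ranges does not show separate levels. With CPM divided by hairpin length, a choice made after the values were seen, the order of the 5 means was the same. All reads of the 5 genes lay on the gene's own strand. The opposite strand had 0 counts in both libraries, so that a level of up to 0.702 CPM there (replicate 1) or 0.748 CPM (replicate 2) could have been missed, and the unstranded counts equalled the own-strand counts for each gene.

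Between the libraries, Mir1981 and Mir702 moved in opposite directions, Mir3102 moved slightly, and no difference was called for Mir1224 and Mir877. The log2 ratio of replicate 2 over replicate 1, on TMM effective library sizes, was 0.80 for Mir1981 (exact 95% interval 0.73 to 0.88). It was -1.08 for Mir702 (-1.20 to -0.96) and -0.17 for Mir3102 (-0.25 to -0.09). Each gene's counts were compared by a binomial test, exact and two-sided, and p-values were adjusted after Benjamini and Hochberg over the 516 genes that had at least 10 counts. This gave adjusted p-values of 2.37e-95, 1.05e-75 and 0.000125 for these 3 genes. For Mir877 the log2 ratio was -0.09 (-0.20 to 0.01, adjusted p = 0.132 in the exact test) and for Mir1224 it was -0.07 (-0.17 to 0.03, adjusted p = 0.244 in the exact test). The test compares these libraries and counting error alone, not conditions.

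In all, 3 of 5 mirtrons were called, beside 57.9% of all tested genes. With only the genes of 100 or more summed counts tested, to which all 5 mirtrons belong, 3 of 5 were again called, beside 81.9% (253 of 309). With all reads of the library as the scale, 5 of 5 were called, beside 59.5% (307 of 516). By direction, 1 of 5 was higher in replicate 2, where 27.5% of tested genes were, and 2 of 5 were lower, where 30.4% were. A change that also reached an absolute log2 ratio of 1 was found for Mir702 alone, against 19.4% of tested genes. The median log2 ratio of the 5 was -0.09, beside -0.04 for all genes tested. Among the 309 genes whose summed counts reached 100, the median absolute log2 ratio was 0.46. An absolute ratio larger than that of Mir702 was found for 44 of them (14.2%), larger than that of Mir1981 for 80 (25.9%), and larger than that of Mir1224 for 280 (90.6%). The shifts of Mir702 and Mir1981 were thus wider than the typical spread between these libraries, and those of Mir1224, Mir877 and Mir3102 were narrower. With 2 libraries of 1 group no test against the spread between animals is possible.

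**Figure D3:**
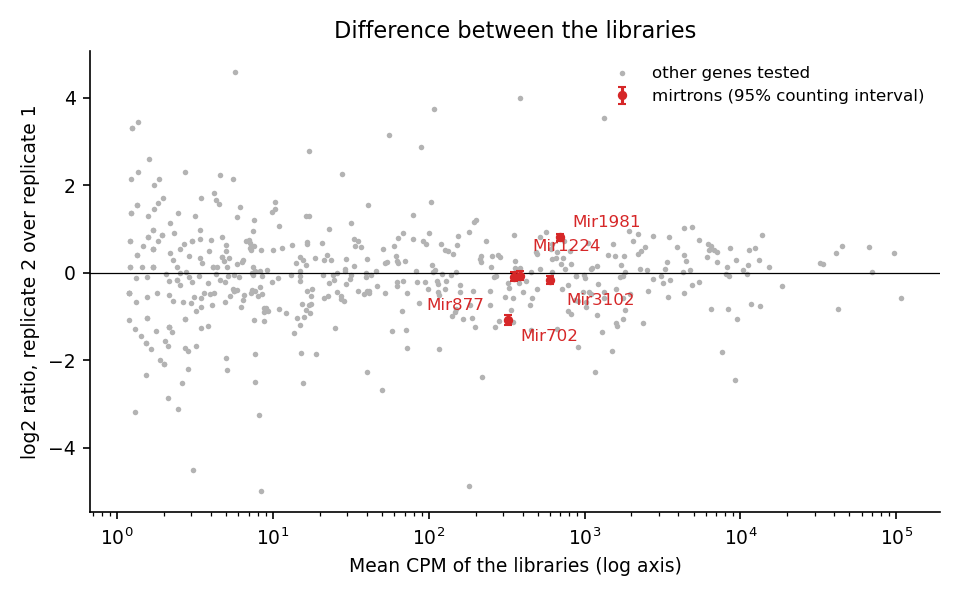
log2 ratio of replicate 2 over replicate 1 (vertical axis) against mean CPM (horizontal log axis) for 511 genes tested, with the mirtrons in red and their exact 95% counting intervals; 5 genes without a count in 1 library have no ratio and are not drawn. Mir1981 lies above the line at 0.80 and Mir702 below it at -1.08, both inside the cloud of other genes, and Mir877 and Mir1224 lie close to 0.

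Ratios between mirtrons within a library need no scaling. Mir1224 stood to Mir877 as 1.09 in replicate 1 and 1.11 in replicate 2, a change of 1.02-fold (exact 95% interval 0.918 to 1.12). Mir1981 stood to Mir702 as 1.17 and 4.30, a change of 3.68-fold (3.34 to 4.07). Of the 10 pairs, the interval of the change held 1 for 3, the pairs among Mir877, Mir1224 and Mir3102. In the other 7 pairs, each with Mir1981 or Mir702 in it, it did not. The 10 pairs reuse the same 5 genes and are not independent. Pairs of other genes were not compared, so no share over all genes stands beside these counts. Of single genes with 100 or more counts, 81.9% were called between the libraries. For the genes of miR-702-5p and miR-3102-5p, which share a seed, Mir3102 stood to Mir702 as 1.45 and 2.72, a change of 1.88-fold (1.70 to 2.08). These intervals again cover counting error only.

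The place of the hairpin was then looked up for every microRNA gene of the tables, to see what else lies at intron ends. With both ends within 5 bases, 23 hairpins span an intron of their own strand, 4 of the mirtrons among them. These introns are 67 to 137 bases long with a median of 85, and 22 of the 23 hairpins match their intron exactly. Of the 17 with a hairpin sequence, 15 begin with GU and end with AG. A further 203 hairpins touch the 3′ end of an intron only and 9 the 5′ end only, as tailed mirtrons do, whereas 722 lie inside an intron and 1245, Mir702 included, have no host intron by this rule.

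The 4 mirtrons were the most abundant of the hairpins that span an intron. They were chosen with earlier results of these data known, so this order may partly restate the choice. Of the other 19, 12 had counts and 3 were detected, and their mean level had a median of 0.608 CPM. Mir7080, in a 67-base intron of the copine gene Cpne7, had 144 and 135 CPM in replicates 1 and 2. Mir3547, in an 88-base intron of Baiap3, had 70.4 and 114 CPM. Mir6944, in a 96-base intron of Dbn1, which encodes the dendritic spine protein drebrin, had 61.5 and 43.6 CPM. Gm24589 in Pkd1 and Mir6958 in Dennd6b followed at means of 5.53 and 4.91 CPM. All of these lie below the lowest mean of the 5 mirtrons, 322 CPM for Mir702. In the exact binomial test Mir3547 was higher in replicate 2 (log2 ratio 0.73, 0.52 to 0.95) and Mir6944 lower (-0.46, -0.74 to -0.17), and Mir7080 was not called (-0.05, -0.22 to 0.12).

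At the 3′ end of an intron only, 10 of 203 hairpins (4.93%) were detected, and at the 5′ end only 2 of 9 (22.2%). The share was 7 of 23 (30.4%) for hairpins that span an intron, or 3 of 19 (15.8%) without the 4 mirtrons. It was 158 of 722 (21.9%) inside an intron, 123 of 1245 (9.88%) without a host intron and 13.6% over all genes. The highest of the 203 was Mir382 at 10200.3 and 14575 CPM. It lies in the long noncoding RNA Mirg, the host of a cluster of imprinted microRNAs. Mir7044, in Rasgef1a, had 45.6 and 31.7 CPM. At the 5′ end only, Mir369 (2288 and 1600 CPM) and Mir668 (2397 and 1121 CPM) also lie in Mirg, and Mir5617, in the gene of the synaptic vesicle protein synapsin I, had 8.42 and 6.23 CPM. Without the Mirg hairpins, 9 of 202 hairpins at the 3′ end and 0 of 7 at the 5′ end were detected, each below the mean of every one of the 5 mirtrons. No test of these shares was made.

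**Figure D4:**
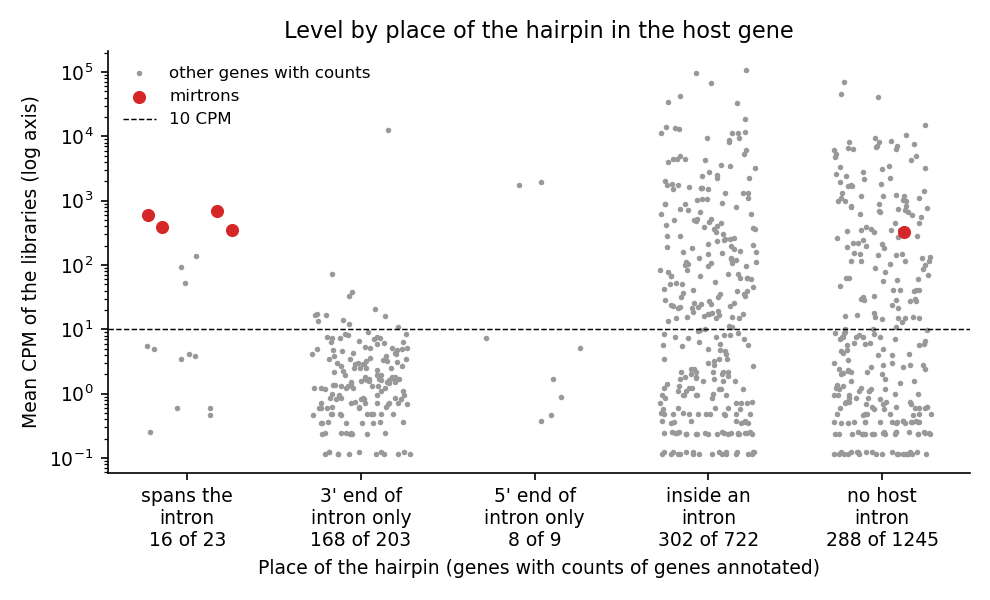
Mean CPM (log axis) of microRNA genes by the place of the hairpin in a host gene, with 1 point per gene with counts, the mirtrons in red and a dashed line at 10 CPM; numbers under the axis give genes with counts of genes annotated. The mirtrons top the hairpins that span an intron, Mir702 stands among genes without a host intron because its hairpin reaches 9 bases into an exon, and most hairpins at the 3′ end of an intron lie below the line.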

How the data were processed

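For each library the authors deposited a table of raw read counts, whole numbers without normalization, with microRNA genes as its rows. The reads were mapped to mm10 with annotation M21, per the text files deposited beside the tables; for the aligner and the counter, a name was not given in the sources used here. Without a header, the 3 columns were read as unstranded, own-strand and opposite-strand counts, and the own-strand column was used. Entries that name no gene stayed out of totals and tests: in replicate 1, 16.7% of the library was unmapped, 42.8% mapped to several places and 4.56% fell outside microRNA genes, and in replicate 2 these shares were 20.9%, 39.9% and 4.39%. Both arms of a hairpin share 1 count.

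Introns were taken from all same-strand transcripts of GENCODE M21 other than microRNAs, and the intron with the smallest summed distance to both hairpin ends was used. Predicted folds are from RNAfold 2.7.2. Ratios used an exact binomial test against TMM sizes (edgeR 4.0.16, R 4.3.3), computed over genes with 10 or more counts, with Benjamini-Hochberg adjustment at 0.05, since 1 group leaves no contrast for a count model. The test was checked on simulated libraries with known changes and counting error only. That check does not cover the wider spread between the real libraries, a coefficient of variation of 43.7% by edgeR's common dispersion. Changes of ratios between genes are conditional odds ratios (SciPy 1.17.1). Alternatives included DESeq2 1.42.0 size factors.

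The members, lists and tests were chosen with earlier results of these data known. Named beside the 5 mirtrons were the 5 other intron-spanning genes with the highest mean CPM, the 3 highest of each tailed class, genes sharing a seed, the markers and the gene with the highest mean level, Mir139; 1 gene under this rule is not reported here. Whether samples with separate animal numbers are separate animals is not settled by the labels, so p-values measure only counting error between these libraries.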

Additional observations from a re-analysis of the deposited data

Results flagged for a closer look

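A large part of each library lies outside the gene counts. Reads that mapped to several places were 42.8% of the reads of replicate 1 and 39.9% of those of replicate 2. A further 4.56% (replicate 1) and 4.39% (replicate 2) mapped to 1 place that is no microRNA gene. How many of them come from the host introns of the 5 mirtrons was not tested.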

How the results depend on the processing

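All 5 mirtrons stayed detected under minimum levels of 1 and 100 CPM, with unstranded counts and in each library alone. Each had at least 203 CPM in both libraries, so the outcome at 1 and 100 CPM follows from their levels. The share of all genes detected at those minimum levels was not computed. The log2 ratios of Mir1981 (0.72 to 0.84), Mir702 (-1.17 to -1.04) and Mir3102 (-0.26 to -0.13) kept their direction and stayed called under 6 of 6 alternatives each. Mir877 became called with total counts (-0.13, adjusted p = 0.0238 in the exact test), all reads (-0.18, 0.00159) and unstranded counts (-0.12, 0.0393), and Mir1224 with all reads (-0.16, 0.00414). The adjusted p ran from 0.00159 to 0.393 for Mir877 and from 0.00414 to 0.626 for Mir1224. DESeq2 size factors shifted log2 ratios by 0.04, total counts by -0.04 and all reads by -0.09. Genes called between the libraries fell from 299 to 100 when an absolute log2 ratio of 1 was required.

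Levels move with the total by construction. Per 1000000 reads of the whole library, the means were 245 for Mir1981, 211 for Mir3102, 137 for Mir1224, 125 for Mir877 and 115 for Mir702. Without Mir139, the gene with the highest mean, in the total, Mir3102 had 671 CPM, Mir1224 434 CPM and Mir877 395 CPM, and with unstranded counts Mir1224 had 417 CPM and Mir877 379.7 CPM. Hairpins at intron ends detected numbered 94 at 1 CPM and 8 at 100 CPM instead of 19, and 12 instead of 7 spanned an intron at 1 CPM. The numbers of hairpins that span an intron or touch 1 of its ends moved by less than 1.5 times with margins of 2 and 10 bases and with protein-coding transcripts only. No paired analysis was possible because there is 1 group. The number of libraries, 2, limits every statement on spread, and counts of single arms and of introns were not analysed here.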

Other observations

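Many hairpins at the 3′ end of an intron had a trace of reads. Of these 203 hairpins 168 (82.8%) had at least 1 count in the libraries together, against 8 of 9 (88.9%) at the 5′ end only. The share was 16 of 23 (69.6%) for those that span an intron, or 12 of 19 (63.2%) without the 4 mirtrons. It was 302 of 722 (41.8%) inside an intron and 288 of 1245 (23.1%) without a host intron. Over all genes the share was 35.5% (782 of 2202). Reads that mapped to several places are in none of these counts, and their part in the shares was not tested. The median mean level of the 203 was 0.967 CPM, near the level that a count of 0 allows. In 187 of the 203 the hairpin ends on the last base of the intron. Whether these traces are mature microRNAs or pieces of introns cannot be told apart from gene counts, and the difference between the shares was not tested.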
